A study of Mus musculus with 4 samples.

Results

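The T cell receptor variable segments are the gene pieces that encode the antigen-binding ends of the receptor chains. In the deposited count table they were taken as every gene whose symbol begins with Trav, Trbv, Trgv or Trdv and a number, for the alpha, beta, gamma and delta chain. These were 131 of 40481 genes, made up of 103 Trav, 22 Trbv, 1 Trgv and 5 Trdv segments. A further 6 gamma variable segments carry the older symbol Tcrg-V in the table, fall outside that choice and are given beside it. The libraries were made from CD49a-positive mouse ILC1s. These type 1 innate lymphoid cells reside in tissues and are related to natural killer (NK) cells. Control libraries 1 and 2 came from Inpp4b flox/flox mice. Libraries 3 and 4, labelled knockout and called knockout libraries here, came from Ncr1-iCre Inpp4b flox/flox mice. All 4 libraries thus carry the floxed allele, and iCre, which is made where the NK receptor gene Ncr1 is active, goes with the knockout label. The labels give no ages and do not say whether libraries came from single or pooled animals or from separate ones, so every p-value rests on the spread among these samples alone, which may be technical. A tissue, liver, is given for control library 1 and for no other.

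A developing T cell joins 1 variable segment to a joining segment, in the beta and delta chains through a diversity segment as well, and splices the result to a constant segment. Alpha and delta segments share a region of chromosome 14, where some variable segments (with dv in their symbols) can serve either chain. Beta segments lie on chromosome 6 and gamma segments on chromosome 13. Each T cell clone keeps the segments it chose, so the segments in a T cell population record which clones it holds. ILC1s and NK cells do not carry a rearranged receptor on their surface, but segments of the receptor loci can be transcribed in such cells without rearrangement.

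Library totals ranged from 42380840 to 54878210 counts. Itga1, the gene of CD49a, was at 178.9 to 217.6 CPM (counts scaled to depth, here with TMM-scaled library totals), and Tbx21, the T-bet gene, at 39.4 to 57.0 CPM. Ncr1, the NKp46 gene, was high in all libraries but lower in both knockout ones, at 1672 and 1772 against 1202 and 1077 CPM. edgeR did not call it (adjusted p = 0.280), and DESeq2 did (adjusted p = 0.0294). Of the 9 ILC1 and NK markers, both knockout libraries lay below both controls in 3 (Itga1, Tbx21 and Ncr1). They lay above in 3 (Cxcr6, Klrb1c and Eomes), against 20.8% of all genes below and 19.5% above. The 9 summed to 11194 and 11909 against 10817 and 12044 CPM, with overlapping groups. Inpp4b itself was not lower in the knockout libraries, at 78.7 and 106.5 against 142.5 and 85.96 CPM (edgeR log2 fold change 0.30 with SE 0.28, adjusted p = 0.828). The count covers the whole gene and so does not check a partial deletion. Every direction below is that of libraries labelled knockout. Markers of some other cells differed between the groups too. The 6 B cell markers overlapped in sum, at 715.7 and 1045 against 648.5 and 804.0 CPM. Of these, 4 were tested and edgeR called 0, against 0.155% of all genes. The 7 myeloid markers, led by Cd74 and Lyz2, summed to 311.4 and 413.6 CPM in controls against 1827 and 2246 in knockout libraries, and edgeR called 4 of them higher, against 0.141% of all genes. Clec4f, the Kupffer cell marker of that list, was instead not higher, at 5.69 and 4.80 against 4.79 and 0.676 CPM (adjusted p = 0.828 in edgeR). Knockout library 3 lay close to control library 2, so a clearly lower level was seen in knockout library 4 alone. Of 15 T cell markers, none was at 0 in all libraries, 13 were tested and edgeR called 0. Those with too few counts to be tested were Cd5 and Cd6. In libraries 1 to 4, Cd5 had 0, 1, 0 and 19 counts and Cd6 had 6, 1, 8 and 1. Unadjusted p-values under 0.05 were found for 5, all higher, against 4.48% of all genes, and DESeq2 called 3 higher (Cd3e, Cd3d and Cd8a), against 1.85%. Their sum was 1758 and 1584 against 2176 and 2971 CPM, most of it Cd3g, at 1255 to 1931 CPM in every library. Cd3e, a signalling subunit of the receptor complex, was at 26.5 and 15.1 against 152.5 and 371.0 CPM. Cd3d, a further subunit, was at 21.4 and 18.5 against 87.1 and 209.3 CPM. The groups overlapped for the transcription factor genes Bcl11b (14.7 and 15.9 against 7.24 and 15.6 CPM), Lef1 (34.1 and 26.1 against 27.1 and 29.0) and Tcf7 (90.3 and 124.8 against 95.8 and 113.9). The part of such cells in the results below was not tested.

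The variable segments split by chain. Summed Trav, Trbv and Trgv levels were higher in both knockout libraries than in both controls, while the groups overlapped for Trdv. Trav summed to 2.86 and 3.11 CPM in the controls and 41.9 and 128.0 CPM in knockout libraries 3 and 4, with group means of 2.99 ± 0.176 and 84.9 ± 60.9 CPM (SD, n = 2 each). Trbv summed to 7.09 and 9.21 against 84.8 and 112.0 CPM (8.15 ± 1.499 and 98.4 ± 19.2 CPM). Trgv2, the only Trgv segment, was at 3.45 and 3.68 against 20.7 and 67.3 CPM (3.57 ± 0.165 and 44.0 ± 33.0 CPM). Trdv summed to 158.9 and 204.5 against 167.0 and 159.6 CPM (182 ± 32.2 and 163 ± 5.23 CPM). The groups did not overlap for the first 3 classes, with means 28.4-fold, 12.1-fold and 12.3-fold higher, and overlapped for Trdv, whose means differed by less than the SD of the controls. The knockout libraries differed 3.06-fold from each other in Trav and 3.26-fold in Trgv2, against 1.09-fold and 1.07-fold between the controls. With libraries of bulk cells, more cells of a type and more RNA per cell cannot be told apart. No test is given for these sums, since 2 libraries against 2 cannot give an exact two-sided permutation p under 0.333. Without knockout library 4 the log2 ratio of the Trav means fell from 4.83 to 3.81 and that of Trgv2 from 3.63 to 2.535. Without knockout library 3 they were 5.42 and 4.24.

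**Figure D1:**
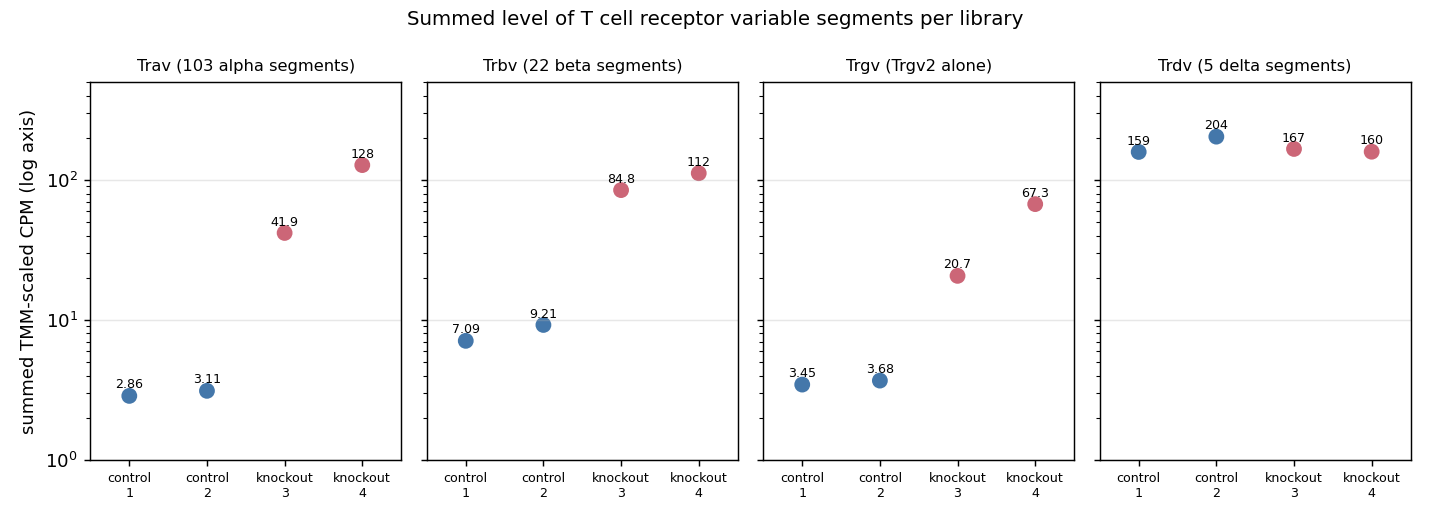
Summed TMM-scaled CPM (log axis) of the variable segments of each chain in each library, controls in blue and knockout libraries in red, 1 point per library. Both knockout libraries lie above both controls for Trav, Trbv and Trgv2, and all 4 libraries lie between 158.9 and 204.5 CPM for Trdv.

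The segments that led each chain are shown by the last 90 bases of their coding sequence, since this end, near the conserved cysteine of the variable region, is where the joined segment begins. Capitals mark the last in-frame cysteine codon. In Trbv1 another cysteine codon precedes it closely, so the capitals there may not mark the conserved cysteine. The sequences are the GENCODE M21 transcripts (mm10), read 5′ to 3′.
Trav14-1 (chr14:53554469-53554558, plus strand): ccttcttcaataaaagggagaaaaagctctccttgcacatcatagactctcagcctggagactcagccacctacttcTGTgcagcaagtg
Trav7-4 (chr14:53461649-53461738, plus strand): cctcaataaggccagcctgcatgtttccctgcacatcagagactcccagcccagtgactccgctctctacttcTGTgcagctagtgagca
Trbv14 (chr6:41135527-41135616, plus strand): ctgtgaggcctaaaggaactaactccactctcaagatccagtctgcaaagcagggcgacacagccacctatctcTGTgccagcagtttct
Trbv1 (chr6:40891796-40891885, plus strand): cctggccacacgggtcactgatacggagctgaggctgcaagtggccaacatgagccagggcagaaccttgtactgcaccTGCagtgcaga
Trgv2 (chr13:19336573-19336662, minus strand): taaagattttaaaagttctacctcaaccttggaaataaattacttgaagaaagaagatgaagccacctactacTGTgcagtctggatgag
Trdv4 (chr14:54075426-54075515, plus strand): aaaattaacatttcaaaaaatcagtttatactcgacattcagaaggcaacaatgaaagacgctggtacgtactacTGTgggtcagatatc

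In the alpha chain, a different segment led each knockout library, and each leader was at 0 in the other 3 libraries. Trav14-1 (ENSMUSG00000076840, chromosome 14, 53554022 to 53554558) had 5281 counts in knockout library 4, or 102.1 CPM. That was 79.7% of the Trav counts of that library (exact 95% interval 78.75 to 80.7%). Against a floor of 3 counts per library, it was at least 1462-fold higher there than in any other library. Trav7-4 (ENSMUSG00000094766, chromosome 14, 53461099 to 53461738) had 1027 counts in knockout library 3, or 23.9 CPM, which was 57.1% of its Trav counts (54.7 to 59.4%) and at least 376-fold above the other libraries. In knockout library 3, Trav15-1-dv6-1 came second with 228 counts (12.7%), and it had counts in every library. Other segments among the 3 most counted were again found in 1 knockout library each. Trav12-3 had 559 counts in knockout library 4 (8.44% of Trav), and Trav9n-4 had 119 counts in knockout library 3 (6.61%). Neither had a count in any other library.

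Most alpha segments had few counts or none. Of the 103 Trav segments, 43 had no count in any library, and 30 reached 10 counts in at least 1 library. Of those 30, 23 reached it in 1 library only and 2 in all 4. At 10 counts, 6 and 7 segments were detected in control libraries 1 and 2, and 18 and 14 in knockout libraries 3 and 4. Only 4 were detected in both knockout libraries, which is 22.2% of the 18 and 28.6% of the 14. All 4 were segments with dv in their symbols, which can serve the delta chain too (Trav13-4-dv7, Trav15-1-dv6-1, Trav15d-1-dv6d-1 and Trav21-dv12). The controls shared 4 as well, of which 3 were dv segments.

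Trav15-1-dv6-1 was the most counted alpha segment of both controls and the only Trav segment among the 3 most counted in every library. It had 31 and 35 counts in controls and 228 and 334 in knockout libraries, or 0.535 and 0.741 against 5.30 and 6.45 CPM. The groups did not overlap, and the log2 fold change of 3.20 (SE 0.56) had an edgeR adjusted p of 0.182. DESeq2 called it (adjusted p = 5.5e-06). Together the 9 dv segments held 47.6% and 59.2% of the Trav counts in controls and 16.8% and 8.80% in knockout libraries. Their summed level was 1.36 and 1.84 against 7.05 and 11.3 CPM, and that of the other Trav segments 1.5004 and 1.27 against 34.8 and 116.7 CPM. The lower dv share in the knockout libraries thus went with higher dv levels. The segments next in order in the controls had few counts. Trav12-2 had 21 counts in control library 1, 20 in knockout library 3, 3 in knockout library 4 and 0 in control library 2. Trav15d-1-dv6d-1 had 20 and 17 against 48 and 69 counts, and Trav13-2 had 16 counts in control library 2 alone.

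**Figure D2:**
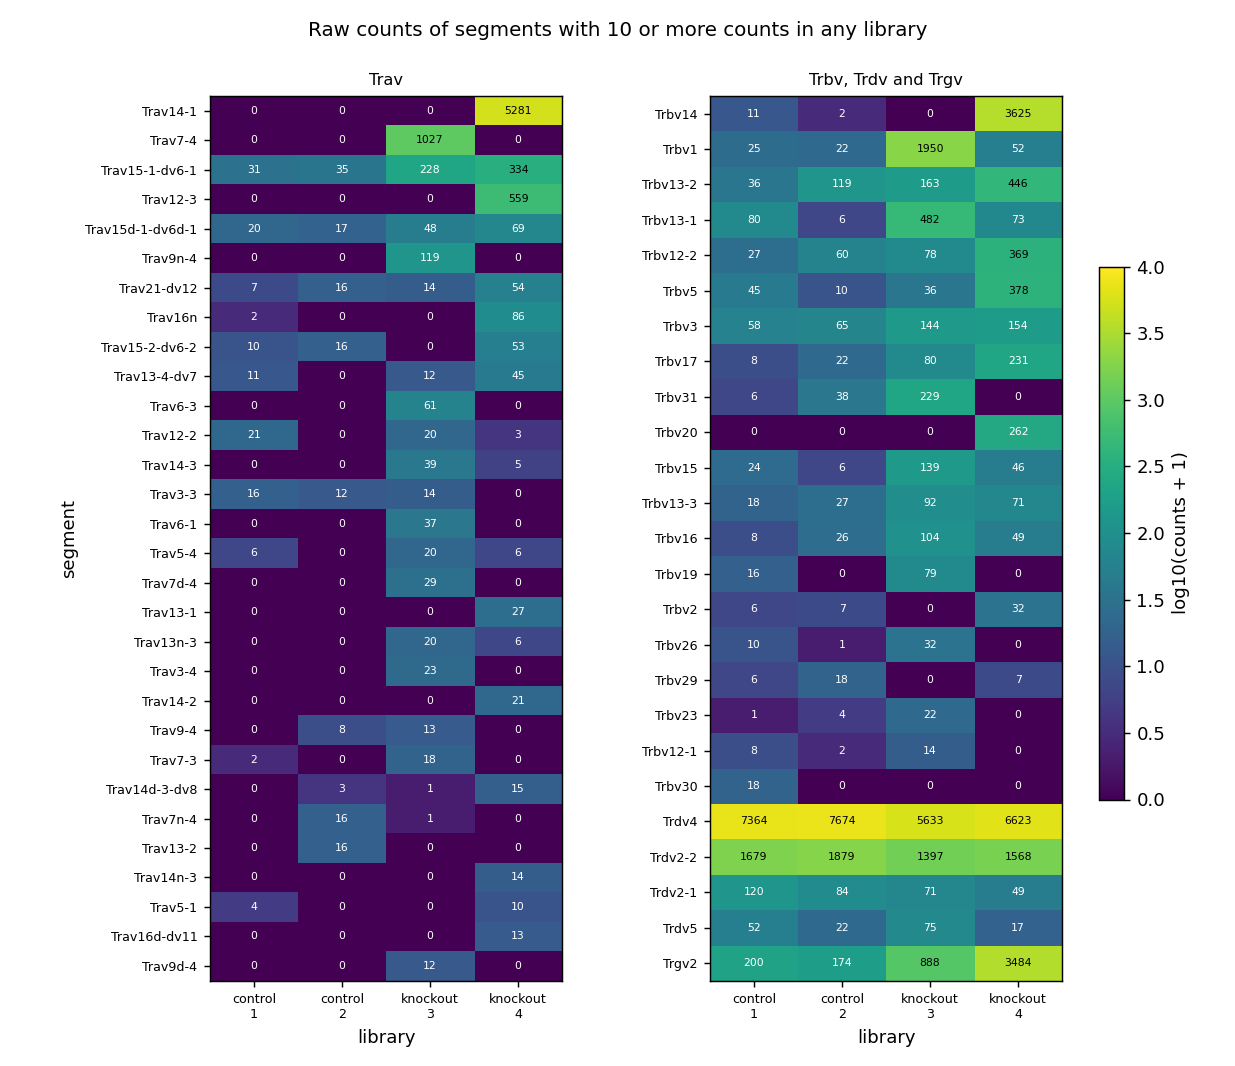
Raw counts of each segment with 10 or more counts in any library (rows) in the 4 libraries (columns), coloured by log10(counts + 1), with Trav on the left and Trbv, Trdv and Trgv2 on the right. Trav14-1 and Trav7-4 each fill 1 knockout library and are at 0 elsewhere, while Trdv4 and Trdv2-2 are high in all 4 libraries.

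The beta chain showed the same change of leader between libraries on a broader base. Trbv14 (ENSMUSG00000076471, chromosome 6, 41135145 to 41135616) had 11 and 2 counts in controls, 0 in knockout library 3 and 3625 in knockout library 4. It held 62.6% of the Trbv counts of that library (61.3 to 63.8%). Trbv1 (ENSMUSG00000076461, chromosome 6, 40891229 to 40891885) had 25 and 22 counts in controls, 1950 in knockout library 3 and 52 in knockout library 4. Its share in knockout library 3 was 53.5% (51.9 to 55.1%). Per library, the level of Trbv14 was 0.190, 0.0423, 0 and 70.1 CPM and that of Trbv1 0.431, 0.466, 45.4 and 1.005 CPM. Each leader was thus high in 1 knockout library, while in the other Trbv14 was at 0 and Trbv1 a little above the controls. Neither passed edgeR's test, with adjusted p-values of 0.422 for Trbv14 and 0.366 for Trbv1.

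In the controls no beta segment took such a share. Trbv13-1 led control library 1 with 80 counts (19.5%, 15.75 to 23.6%) and had 6 in control library 2. Trbv13-2 led control library 2 with 119 counts (27.4%, 23.2 to 31.8%) and had 36 in control library 1. These segments and Trbv13-3 are common in the beta chains of invariant natural killer T cells. Trbv13-1 was at 1.38 and 0.127 against 11.2 and 1.41 CPM, so the level in knockout library 4 lay close to that of control library 1. Trbv13-2 was at 0.621 and 2.52 against 3.79 and 8.62 CPM (edgeR log2 fold change 1.99 with SE 0.80, adjusted p = 0.506). Trbv13-3 was at 0.310 and 0.572 against 2.14 and 1.37 CPM (adjusted p = 0.539 in edgeR). For both of these the groups did not overlap.

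Of the other leading beta segments, Trbv3 was the most even, with 58 and 65 counts in controls and 144 and 154 in knockout libraries (1.0003 and 1.38 against 3.35 and 2.98 CPM, adjusted p = 0.540 in edgeR). Trbv12-2 had 27 and 60 against 78 and 369 counts (0.466 and 1.27 against 1.81 and 7.13 CPM, adjusted p = 0.487 in edgeR). Trbv5 had 45 and 10 against 36 and 378 counts, and its exons overlap a noncoding gene on the same strand. Trbv31, which lies beyond Trbc1 and in the opposite orientation, had 6 and 38 counts in controls, 229 in knockout library 3 and 0 in knockout library 4. For Trbv3, Trbv5 and Trbv12-2 both knockout libraries lay above both controls in CPM, though Trbv5 narrowly so, at 0.838 CPM in knockout library 3 and 0.776 in control library 1. For Trbv31 they overlapped. Named after their values were seen, Trbv17 had 8 and 22 against 80 and 231 counts and Trbv20 had 262 counts in knockout library 4 and 0 elsewhere. In all, 12 and 10 of 22 Trbv segments reached 10 counts in the controls and 15 and 13 in the knockout libraries, with 10 shared by the knockout libraries and 6 by the controls.

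Counts were more concentrated on few segments in the knockout libraries. The effective number of segments (the inverse of the summed squared shares, equal to the number of segments if all were equally counted) was 11 and 7.79 for Trav in controls and 2.86 and 1.55 in knockout libraries. For Trbv it was 10.27 and 7.175 against 3.165 and 2.44. The groups did not overlap for either chain. Drawing every library down to the 147 Trav counts of the smallest, the expected number of Trav segments with a count was 27.8 and 14.0 in controls and 18.55 and 9.42 in knockout libraries, so at equal counts the groups overlapped. For Trbv at 411 counts it was 19.0 and 16.9 against 14.7 and 13.2, so the groups did not overlap and the knockout libraries were lower. Detection at 10 counts without drawing down went the other way for Trbv. The 2 control libraries held few counts of either chain, 166 and 147 for Trav and 411 and 435 for Trbv. Intervals and floors cover counting error only, since PCR copies of 1 molecule could not be told apart from separate molecules.

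**Figure D3:**
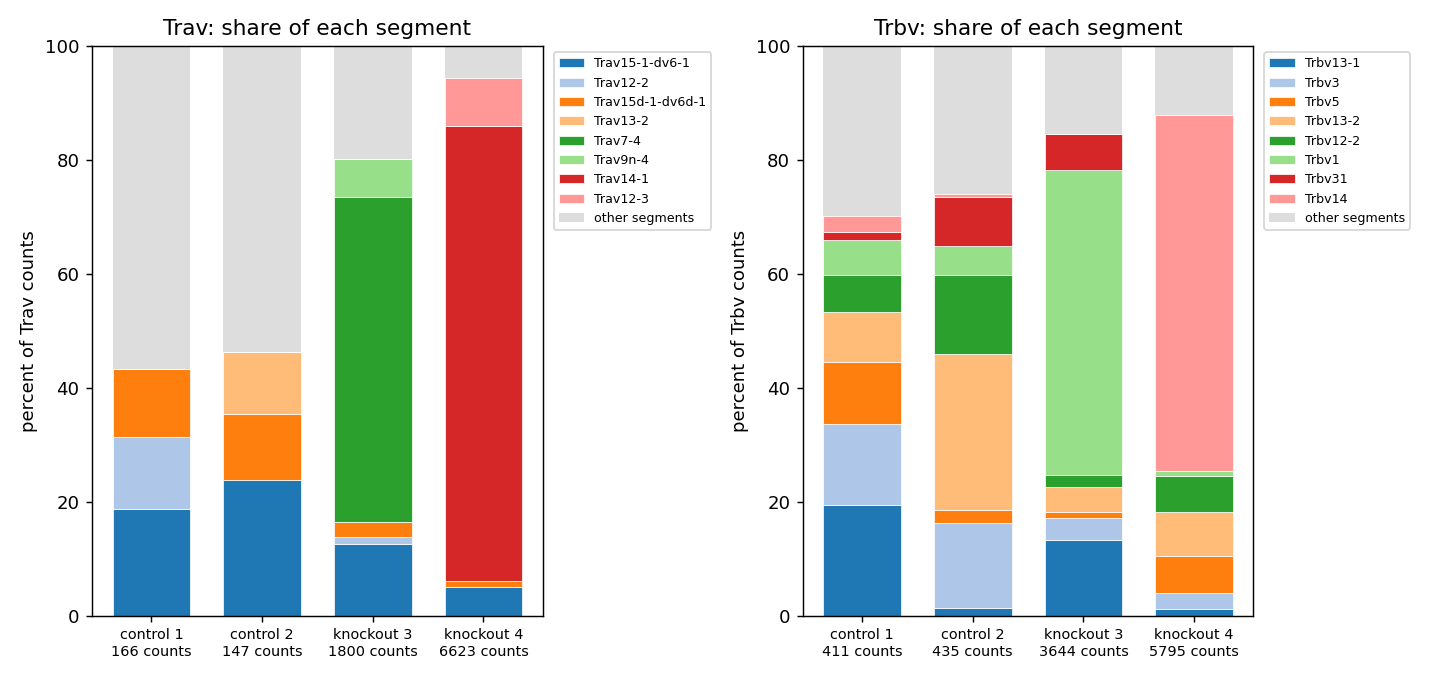
Share of each segment in the Trav counts (left) and Trbv counts (right) of each library, as stacked percentages. The 3 most counted segments of each library are coloured and the rest are grey. Trav14-1 and Trbv14 take 79.7% and 62.6% of knockout library 4, and Trav7-4 and Trbv1 take 57.1% and 53.5% of knockout library 3, while no segment exceeds 27.4% in a control.

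In the delta chain the levels were high and the groups overlapped for the leading segments. Trdv4 (ENSMUSG00000076867, chromosome 14, 54074905 to 54075515) was the most counted variable segment of all in every library, with 7364 and 7674 counts in controls and 5633 and 6623 in knockout libraries. Its level of 127.0 and 162.4 against 131.1 and 128.0 CPM gave overlapping groups (edgeR log2 fold change -0.16 with SE 0.17, adjusted p = 0.870). Trdv2-2 was at 29.0 and 39.8 against 32.5 and 30.3 CPM (edgeR log2 fold change -0.13 with SE 0.25, adjusted p = 0.954). Their shares stayed close to each other across libraries. Trdv4 held 79.9%, 79.45%, 78.5% and 80.2% of Trdv counts in libraries 1 to 4, and Trdv2-2 held 18.2%, 19.5%, 19.5% and 19.0%. Per kb of exon, Trdv4 stood at 286 to 366 CPM and Trdv2-2 at 72.9 to 100.2 CPM. The remaining segments were low. Trdv2-1 was at 2.07 and 1.78 against 1.65 and 0.947 CPM, lower in both knockout libraries (adjusted p = 0.907 in edgeR). Trdv5 was at 0.897 and 0.466 against 1.75 and 0.329 CPM, and Trdv1 had no count in any library. Trdv2-1 and Trdv2-2 have an antisense gene across their exons, and Trdv5 lies across the exons of Trdc on the opposite strand. Since the strand setting of the counting was not given in the sources used here, these 3 values cannot be told apart from those of the partner genes. Trdv4 has no such partner in the annotation and shares no stretch of 50 bases with another annotated transcript.

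In the gamma chain, Trgv2 stood apart from the other segments. Trgv2 (ENSMUSG00000076754, chromosome 13, 19336573 to 19337167, minus strand) had 200 and 174 counts in controls and 888 and 3484 in knockout libraries. The log2 fold change of 3.63 (SE 0.59) had an edgeR adjusted p of 0.166, and DESeq2 called it (adjusted p = 1.3e-10). The 6 Tcrg-V segments summed to 32.3 and 47.7 against 41.8 and 46.7 CPM, and edgeR called 0 of them, with 0 at an unadjusted p under 0.05 and 0 called by DESeq2. Tcrg-V4 was at 14.1 and 23.9 against 19.4 and 20.2 CPM, and Tcrg-V1 at 10.4 and 12.7 against 15.0 and 17.5 CPM. Tcrg-V5 was at 7.16 and 10.1 against 6.49 and 6.94 CPM. Tcrg-V3, Tcrg-V6 and Tcrg-V7 stayed at or under 1.22 CPM. Per kb of exon, Trgv2 was lower than Tcrg-V1, Tcrg-V4 and Tcrg-V5 in both controls (7.02 and 7.50 CPM against 21.0 to 56.2). It was higher than all 3 in knockout library 4 (137.1 against 20.3 to 47.5 CPM). In knockout library 3 it was at 42.1 CPM per kb, between Tcrg-V1 at 40.2 and Tcrg-V4 at 45.5. No test of the difference between Trgv2 and the other gamma segments was made.

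Set against the constant segments, the chains again parted. A rearranged transcript holds a variable and a constant segment, whereas transcripts without a rearrangement can hold the constant segment alone. For every 100 counts of Trac, the alpha constant segment, there were 39.2 and 54.9 Trav counts in controls and 49.2 and 63.7 in knockout libraries (47.0 ± 11.1 and 56.5 ± 10.25, SD, n = 2 each). The groups overlapped for all Trav segments together, and Trav and Trac were both higher in the knockout libraries. These Trav counts include the dv segments, which can serve the delta chain and held a larger share in controls. Trav counts without dv segments were 87 and 60 in controls and 1497 and 6040 in knockout libraries. Trac had 424 and 268 against 3657 and 10395 counts. Without the dv segments the groups thus did not overlap, with more Trav counts per count of Trac in both knockout libraries. This difference was not tested. For every 100 counts of Trbc1 and Trbc2 there were 0.798 and 0.851 Trbv counts in controls and 9.25 and 10.01 in knockout libraries (0.824 ± 0.0376 and 9.63 ± 0.537). The groups lay 11.7-fold apart, far beyond the SD of either. The beta constant counts themselves were large everywhere, 51530 and 51131 in controls and 39392 and 57902 in knockout libraries. For every 100 counts of Tcrg-C2 there were 53.9 and 73.1 Trgv2 counts in controls and 51.0 and 53.75 in knockout libraries, and the means differed by less than the SD of the controls. Trgv2 lies 29.0 kb from Tcrg-C2 on the same strand, and 7.39 kb from Tcrg-C4 on the opposite strand. Tcrg-C4 was at 282.3 and 435.1 against 358.4 and 370.9 CPM, with overlapping groups. These ratios were taken without regard to length, and per kb of exon the log2 ratio of knockout over control changed from 0.26 to 0.17 for Trav, from 3.55 to 3.53 for Trbv and by less than 0.01 for Trgv2.

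**Figure D4:**
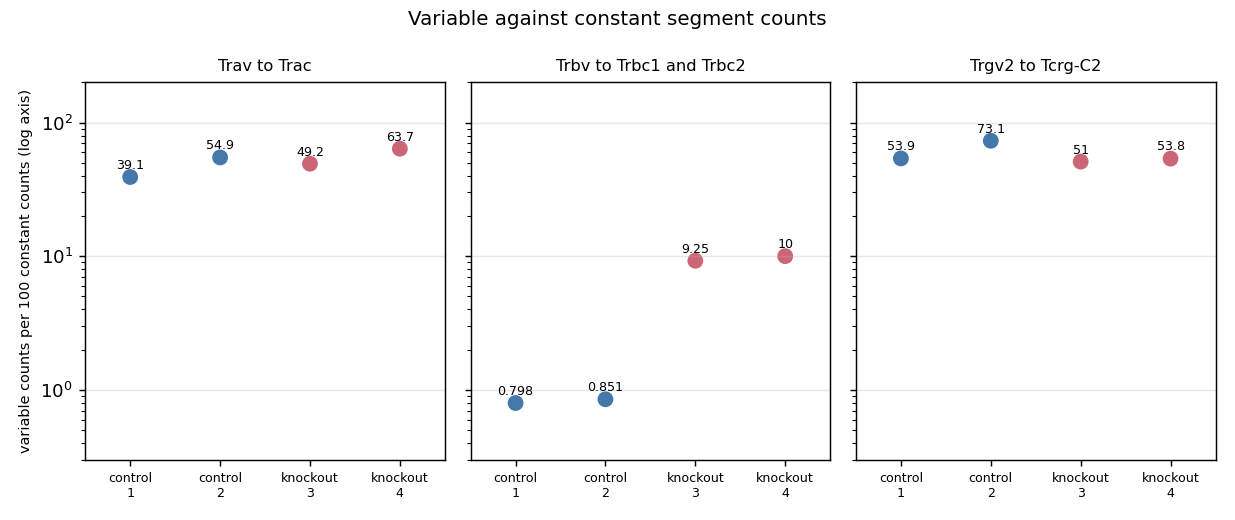
Variable segment counts per 100 constant segment counts (log axis) in each library for 3 pairs, controls in blue and knockout libraries in red, 1 point per library. Trav counts include the dv segments. Trav to Trac and Trgv2 to Tcrg-C2 lie between 39.2 and 73.1 in all libraries. Trbv to Trbc1 and Trbc2 lies below 1 in both controls and above 9 in both knockout libraries.

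Among the other genes of the loci, the alpha constant and joining segments and Tcrg-C2 were higher in both knockout libraries, while of the beta segments Trbc2 was higher and Trbc1 and the Trbj1 sum lower in both. Of 7 constant segments, edgeR called Trac higher (7.31 and 5.67 against 85.1 and 200.9 CPM, log2 fold change 4.46 with SE 0.45, adjusted p = 0.0489) and no other. Trdc, the delta constant segment, was not found under that symbol, so Trdv was not set against a constant segment. Tcrg-C2 was at 6.40 and 5.04 against 40.5 and 125.3 CPM (edgeR log2 fold change 3.86 with SE 0.56, adjusted p = 0.118), and DESeq2 called it (adjusted p = 3.8e-14). Trbc1 was at 442.9 and 615.5 against 389.5 and 425.2 CPM, and Trbc2 at 445.8 and 466.8 against 527.0 and 693.8 CPM. Of 80 joining and diversity segments, 20 were tested and edgeR called 0. Unadjusted p-values under 0.05 went with 2 higher and 7 lower segments, against 4.48% and 5.17% of all genes. DESeq2 called Trbj1-4 lower, 1 of 24 tested, against 1.36% of all genes. The 59 Traj segments summed to 1.19 and 0.720 against 4.03 and 7.69 CPM. Traj11 had 78 counts in knockout library 3 and 0 elsewhere, and Traj30 had 79 in knockout library 4 and 1 elsewhere. The 7 Trbj1 segments summed to 172.6 and 250.2 against 126.0 and 128.3 CPM, with the groups apart in the direction opposite to Trbv. The 7 Trbj2 segments summed to 49.1 and 52.1 against 52.0 and 50.5 CPM. Trbd2, a beta diversity segment, had 60, 54 and 75 counts in libraries 1 to 3 and 1856 in knockout library 4, the library led by Trbv14.

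**Figure D5:**
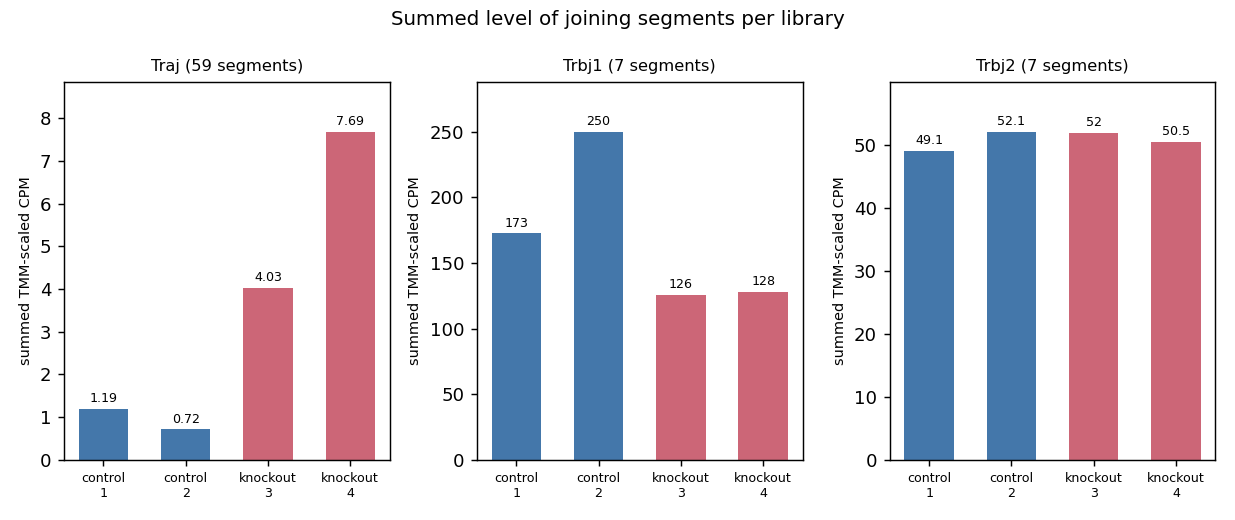
Summed TMM-scaled CPM of the alpha joining segments (Traj) and the 2 clusters of beta joining segments (Trbj1 and Trbj2) in each library, controls in blue and knockout libraries in red. Traj is higher in both knockout libraries, Trbj1 lower in both, and Trbj2 lies between 49.1 and 52.1 CPM in all 4.

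The alpha segments known from innate-like T cells had few counts, unlike the Trbv13 segments, which held 32.6% and 34.9% of Trbv counts in controls against 20.2% and 10.2% in knockout libraries. Trav11 and its copy Trav11d, which encode the alpha chain of invariant natural killer T cells, had 2, 0, 3 and 2 counts each in libraries 1 to 4. Neither copy has a stretch of 50 bases of its own among all annotated transcripts. Their low counts could thus come from the counting alone. Trav1, used by mucosal-associated invariant T cells, had no count, which allows up to 3 counts per library or 0.0517 to 0.0698 CPM. Traj18, the joining partner of Trav11, had 4, 1, 3 and 8 counts. Trbv29 had 6 and 18 against 0 and 7 counts. Trbv1, chosen with these segments, had 25 and 22 counts in controls, 1950 in knockout library 3 and 52 in knockout library 4. Zbtb16, a transcription factor gene of such cells, had 3.79 and 7.43 against 7.61 and 5.55 CPM. Cd163l1, a gamma delta T cell marker, had 1.02 and 1.71 against 18.1 and 3.09 CPM. edgeR did not call it (adjusted p = 0.379) and DESeq2 did (adjusted p = 0.00657). Sox13, listed with Cd163l1, had 2, 0, 0 and 2 counts in libraries 1 to 4. Of the same list, Blk had 1, 0, 0 and 0 counts and Traj33 had 0, 0, 0 and 2. Cd4 was at 1.17 and 1.35 against 1.68 and 4.21 CPM, Cd8a at 15.2 and 19.7 against 59.8 and 141.3 CPM, and Cd8b1 at 0.0345 and 1.61 against 0.116 and 0.657 CPM. Of the genes of receptor assembly, Rag1 and Rag2 had no count, Ptcra 1, 2, 0 and 0 counts, and Dntt 0, 16, 0 and 45 counts. Cd247, the zeta subunit that ILC1s and NK cells use as well, was even, at 84.9 and 76.5 against 84.0 and 85.9 CPM.

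Tested segment by segment over all genes, no member passed. edgeR called 0 of the 25 members that passed the filter on low counts, where 0.155% of all 14863 genes were called (0.141% higher and 0.0135% lower). Counting unadjusted p-values under 0.05 instead, 9 members were higher and 0 lower, against 4.48% and 5.17% of all genes. Both knockout libraries lay above both controls in 14 of the 25 and below in 1, against 19.5% and 20.8% of all genes. The median log2 fold change of the 25 was 2.29, against -0.01 over all genes tested. These shares cannot be read as support, because 11 of the 25 reached the filter only with the help of a knockout library. The filter also removed Trav14-1, Trav7-4 and Trav12-3, which have counts in 1 library only. DESeq2 called 7 of the 36 members it tested, all higher, against 1.85% of genes called higher, namely Trav12-3, Trav14-1, Trav15-1-dv6-1, Trav7-4, Trav9n-4, Trbv17 and Trgv2. Of these, Trav12-3, Trav14-1, Trav7-4 and Trav9n-4 rest on a single library. Without the filter edgeR called 13 of 85 members higher and 0 lower, against 1.25% of all genes higher. Without knockout library 3 it called 3 of 37 higher (Trav14-1, Trbv14 and Trgv2), against 0.112% of all genes, and without any other single library 0. Over all genes edgeR called 18 without knockout library 3, 3 and 1 without control libraries 1 and 2, and 0 without knockout library 4.

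Near-identical copies limit the alpha values. Of the 103 Trav segments, 33 had no stretch of 50 bases of their own among all annotated transcripts, and 8 were unique throughout. Of the 22 Trbv segments, 18 were unique throughout and none lacked a stretch of its own. The 33 held 93 of 8736 Trav counts. Since it is not known how reads that match several copies were counted, those 33 segments could have been left nearly without counts by the counting alone, and the values of segments with few stretches of their own are uncertain. Trav14-1 differed from its nearest copy, Trav14d-1, at 16 bases of 364 (95.6% identity), and 95.1% of its 50-base stretches were its own. Trav7-4 differed from Trav7d-4 at 2 bases of 341 (99.4% identity), and 24.9% of its 50-base stretches were its own. Of the 50-base stretches of Trav9n-4, 11% were its own. Trav7d-4 had 29 counts in knockout library 3, where Trav7-4 had 1027. The pair is printed over 60 bases that hold 1 of the differences, in capitals, to show how little separates the copies.
Trav7-4 (chr14:53461574-53461633, plus strand): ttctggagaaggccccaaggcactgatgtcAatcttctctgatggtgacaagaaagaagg
Trav7d-4 (chr14:52770228-52770287, plus strand): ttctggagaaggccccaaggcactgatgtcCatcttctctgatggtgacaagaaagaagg
Summed over families of copies, the leaders remained. The Trav14 family held 80.6% of Trav counts in knockout library 4 and the Trav7 family 59.8% in knockout library 3. In the controls the Trav15 family led with 38.6% and 46.9%.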

How the data were processed

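The authors deposited raw read counts per Ensembl gene, 1 column per library, as whole numbers with unequal totals. Per the labels' protocols, RNA went into SMARTer low-input libraries for NovaSeq sequencing. The submitters' processing notes name the mm10 assembly and the tools STAR, featureCounts, Subread, DESeq2 and bcl2fastq. The strand and multi-mapping settings are not given in the sources used here, nor is the annotation. Repeated lines (276 of 40757, identical counts) were dropped. Replicates differed beyond sampling noise (chi-square per degree of freedom 90.9 in controls and 83.7 in knockout libraries).

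After filterByExpr and TMM scaling, counts were tested in edgeR 4.0.16 (robust quasi-likelihood, two-sided, genotype only, 2 residual degrees of freedom) in R 4.3.3. Benjamini-Hochberg adjustment ran over 14863 genes, with a threshold of 0.05. The fit was tested on simulated data. Alternatives were DESeq2 1.42.0, its size factors, no filter and leaving out each library. Detection meant 10 or more counts, and intervals of shares were exact binomial (Clopper-Pearson). Positions and exon lengths came from GENCODE M21, which held all 131 members. Variable segments were named if among the 3 most counted of a library or the 5 highest by mean CPM of a class, if called by edgeR, or if from delta, gamma or innate-like T cell segments. Others were chosen after their values were seen, as were the expected segment numbers and the family sums. Members and lists were chosen with earlier results of these data known.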

Additional observations from a re-analysis of the deposited data

How the results depend on the processing

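The sample titles number the libraries 1 to 4, while the deposited column names number them 1 and 2 within each group. Nothing says that these shared numbers mark a pair, and deviations from the group means of same-numbered libraries correlated at 0.0709 over 14863 genes. With the column number as a replicate block, added after seeing the data, edgeR called 0 genes (1709 at an unadjusted p under 0.05) in place of 23, so Trac was not called, and 0 variable segments. DESeq2's size factors changed neither count of calls. The count of genes called by edgeR (23) became 563 without the filter on low counts and 482 with DESeq2's test, and ranged from 0 to 18 when each library was left out. The count of variable segments called (0) became 13 without the filter and 7 with DESeq2, and ranged from 0 to 3. The log2 ratio of summed Trav means (4.83) fell to 3.505 without Trav14-1 and, chosen after seeing the data, to 2.775 without the most counted segment of each library. That of Trbv (3.59) fell to 2.98 without Trbv14 and to 2.39 without each library's leader. Both kept their direction. The same 3 classes stayed higher under plain CPM, DESeq2 size factors and each left-out library. The Trdv ratio of -0.15 ranged from -0.32 to 0.04 over the left-out libraries, within the spread of replicates. The Trgv class, a single segment, could not be computed without its leader. Control libraries held 147 to 435 counts of the alpha and beta chains, which limits their shares.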
